A study of Homo sapiens with 47 samples.

Results

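The cells described here are the 12 HEK293 cells with the most mRNA relative to added spike-in RNA and the 12 with the least, 24 of the 47 single cells measured. HEK293 is an immortal line derived from human fetal kidney cells with adenovirus DNA. All 47 cells came from 1 line, grown untreated in DMEM with glutamine and fetal calf serum, and went through 1 run on a microfluidic chip (Fluidigm C1). Every chamber received 20000 molecules of ERCC spike-in RNA, a mix of synthetic polyadenylated RNAs, and the 5′ ends of poly(A) RNA were counted with unique molecular identifiers (UMIs), random tags that separate original molecules from PCR copies. The groups were chosen by measured values: for each cell the UMIs of all human genes were divided by the spike-in UMIs. The 12 cells with the highest ratio are called mRNA-rich and the 12 with the lowest mRNA-poor, and the 23 others belong to neither group. Cells are named by the number that ends their label.

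A spike-in serves as a yardstick because every chamber receives the same amount: a cell with more mRNA yields more of its own UMIs per spike-in UMI. Most mRNAs of growing cells are known to accumulate roughly in step with cell size, so that their concentration stays steady while their number grows. RNAs that follow something else, such as genome copies, mitochondrial genomes or a phase of the cell cycle, can depart from that proportion.

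The ratio was 19.7 endogenous UMIs per spike-in UMI in the lowest mRNA-rich cell, 21.9 at the median and 29.8 in the highest. In the mRNA-poor cells it was 8.99, 11.8 and 13.2. Since the groups were selected on these values, they are given as a description. At the upper limit, cell 32 lay inside with 19.69 and cell 21 outside with 19.55, and at the lower limit cell 73 lay inside with 13.24 and cell 8 outside with 13.56. The ratio thus had no clear gap at either limit, and whether the cells hold separate populations was not tested. If a cell's mRNA is recovered like the spike-ins, the medians correspond to 437286 mRNA molecules in an mRNA-rich and 236282 in an mRNA-poor cell.

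**Figure D1:**
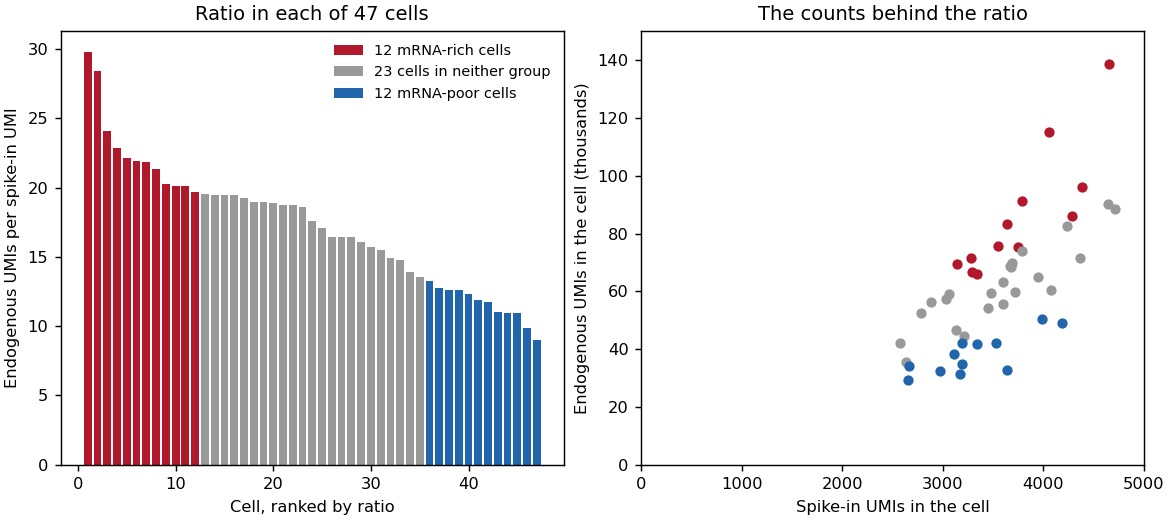
Left, endogenous UMIs per spike-in UMI in each of the 47 cells, ranked; right, endogenous UMIs in units of 1000 against spike-in UMIs in the same cells. The 12 mRNA-rich cells (red) run from 29.8 down to 19.7, the 12 mRNA-poor cells (blue) from 13.2 to 8.99, and the 23 other cells (grey) fill the range between.

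Both counts behind the ratio differed between the groups. Endogenous UMIs were 65849 to 138647 per mRNA-rich cell (median 79434.5) and 29325 to 50386 per mRNA-poor cell (36561.5), with no overlap. Spike-in UMIs were 3142 to 4655 (3693.5) and 2655 to 4181 (3191), with wide overlap, so that median spike-in recovery was 18.47% and 15.96% of the molecules added. Pooled over each group, endogenous UMIs were 2.26-fold higher in the mRNA-rich cells, spike-in UMIs 1.14-fold, and endogenous UMIs per spike-in UMI 1.98-fold. No doublet caller was run on 47 cells, and whether a chamber with a high ratio held 1 larger cell or more than 1 cell was not tested.

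The labelled cell type was checked against marker genes. Of the neuronal markers, which HEK293 cells are known to express, 6 of 10 had a row. All 6 had UMIs among the 47 cells, led by UCHL1, NEFM and NEFL. Their summed level was 2.33 to 25.4 UMIs per 1000 spike-in UMIs in mRNA-rich and 1.58 to 12.3 in mRNA-poor cells. UCHL1 held 298 of 412 neuronal UMIs in mRNA-rich and 117 of 177 in mRNA-poor cells, and SYP had 0 in both groups. Of the kidney epithelium markers 5 of 10 had a row, and all 5 had UMIs, 180 in all 47 cells. VIM, a filament gene of mesenchymal and many cultured cells, had UMIs in all 47 cells and made up most of the fibroblast list, of which COL1A1 had UMIs in 4 cells. Pluripotent stem cell markers had 136 UMIs in all 47 cells, led by LIN28B with DNMT3B and SOX2. Blood and immune markers had 20 UMIs in all 47 cells and adrenal markers 2, none of the latter in the 24 cells.

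The mRNA-rich cells yielded more genes. Between 6757 and 8947 genes had a UMI in an mRNA-rich cell (median 7544.5), against 4202 to 6392 (5440) in an mRNA-poor cell. After each cell was thinned to 29325 endogenous UMIs, the total of the shallowest cell, the medians were 5309.5 in mRNA-rich cells (5040 to 5659) and 4832 in mRNA-poor cells (4202 to 5282). The groups overlapped after thinning, with 5197 genes as the median of the 23 other cells.

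To ask which genes keep pace with total mRNA, the UMIs of each gene were summed over the cells of a group and divided by their spike-in UMIs, and the fold of mRNA-rich over mRNA-poor was set against the overall fold of 1.98. The scaling exponent is the log2 fold of the gene divided by the log2 fold of the total. It is 0 for a gene fixed per spike-in UMI and 1 for a gene in proportion to total mRNA. An exponent up to 0.25 (a fold up to 1.19) is called near fixed, one within 0.25 of 1 (a fold of 1.67 to 2.35) in proportion, and a larger one above proportion. Folds carry 95% exact conditional intervals that cover counting error of UMIs only. All cells came from 1 culture and 1 run, cells are not replicates of a condition, and every gene is part of the total that ranked them, so no test was made and no p-value is given.

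Of 18650 gene rows, 2160 had at least 100 UMIs in the 24 cells, and these held 82.1% of the UMIs. In proportion to the total were 1114 of the 2160 (51.6%). Above proportion were 717 (33.2%), between fixed and proportion 299 (13.8%), and near fixed 30 (1.39%). The median exponent was 1.09, with quartiles of 0.864 and 1.34. All 12 mRNA-rich cells lay above the highest mRNA-poor cell for 107 genes (4.95%), and for 0 genes (0%) did all mRNA-poor cells lie above the mRNA-rich ones. Most of these 2160 genes thus lay in proportion or above it, and few were near fixed. The total is made up mostly of these same genes, so exponents around 1 are built into the measure. With a minimum of 20 UMIs, 34.3% of 6854 genes were in proportion and 8.30% near fixed.

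The spike-ins show how much of this spread appears where nothing but recovery can differ. Among 30 spike-in species with at least 100 UMIs, the fold of 1 species over all other spike-ins had a median of 1.04 and ran from 0.594 (ERCC-00035) to 1.81 (ERCC-00165). For 11 of the 30 the counting interval excluded 1. The 17 species with at least 500 UMIs stayed between 0.877 and 1.23. Less abundant genes were also more often above proportion: 38.3% of those with 100 to 199 UMIs were, against 35.2%, 28.97% and 16.7% in the next 3 ranges of abundance and 1.67% of the 120 genes with at least 2000 UMIs. Relative to the total, the median fold of genes was 1.076 at 100 to 199 UMIs and 0.966 at 2000 or more. That of the spike-ins was 1.073, 1.252, 1.078, 1.037 and 0.990 over the same 5 ranges, highest in the second, with 4 to 8 species in each. The minimum of 100 UMIs is summed over both groups, and the mRNA-rich cells hold 1035096 endogenous UMIs against 458740. Near that minimum a gene can thus pass through its count in the mRNA-rich cells, as with MKI67 (104 and 23 UMIs) and PRIM1 (96 and 21). The part of this filter in the shares above proportion was not tested. The part of recovery in the class of a single gene of low abundance was not tested.

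**Figure D2:**
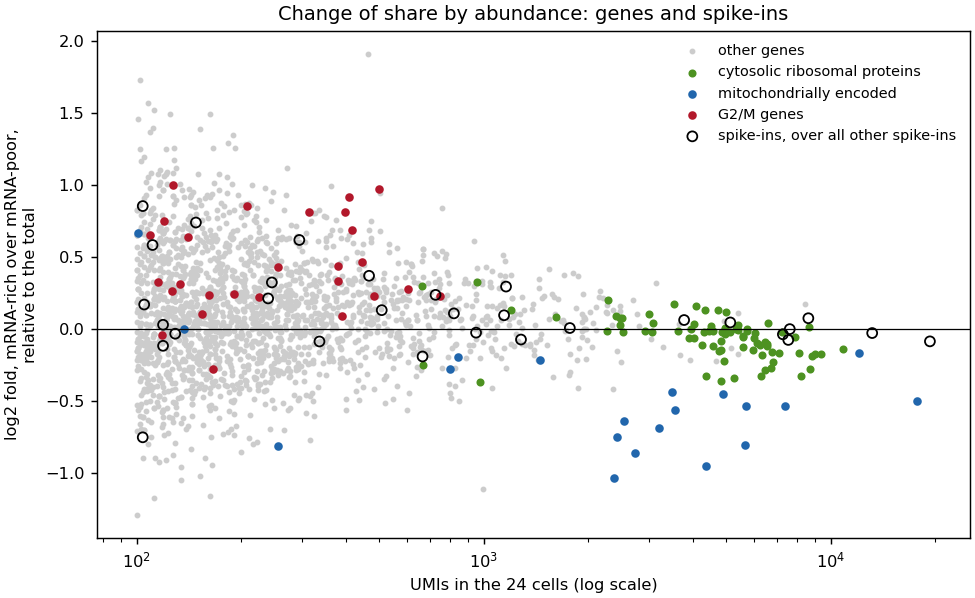
Log2 fold of mRNA-rich over mRNA-poor cells relative to the total (0 is proportion) against UMIs in the 24 cells (log scale), for 2160 genes and, as open circles, 30 spike-ins set against all other spike-ins. The scatter narrows with abundance for both; mitochondrially encoded RNAs (blue) lie mostly below 0 at high abundance and G2/M genes (red) mostly above it at moderate abundance.

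Ribosomal protein genes, the largest block of mRNA in these cells, came close to proportion but a little under it. Their mRNAs share a terminal oligopyrimidine start (TOP), a C followed by a run of C and T at the 5′ end, through which their translation is tied to growth signals. The 25 bases around the annotated start are shown for 6 of the most abundant members because the assay counts exactly this end of the mRNA; capitals mark the pyrimidine run that begins at the annotated start (RefSeq, GRCh38.p14, 5′ to 3′, 5 bases before the start and 20 from it on).
RPLP1: gagagCCCCTTTCCTCagctgccgc
RPL31: gcgctCTTCCTTTCCaacttggacg
RPS27: tcgctCCTTTCCggcggtgacgacc
RPL35A: tcgtcCTTCTCTTaccgccatcttg
RPL37A: tcttcCTTTCTgggctcggacctag
RPL11: cccataaggccctcggccggaagct
The stretches lie on the plus strand at chr15:69452813-69452837, chr2:101002284-101002308, chr1:153990757-153990781, chr3:197950185-197950209, chr2:216498839-216498863 and chr1:23691774-23691798. A TOP-like start, read as C and then 4 pyrimidines at the annotated start, was present in 18 of 25 matched small-subunit genes (72.0%) and 25 of 39 matched large-subunit genes (64.1%), against 9.63% of the 1817 matched nuclear genes tested and 4.04% of all 27303 promoters of the table. RPL11 has none at the annotated start, which says only that these letters are not there in this annotation.

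The 47 large-subunit genes summed to 3146 to 4647 UMIs per 1000 spike-in UMIs in mRNA-rich cells (median 3498) and to 992.3 to 2412 in mRNA-poor cells (2000). Every mRNA-rich cell lay above every mRNA-poor cell, as for most of the 33 gene lists summed here. The fold was 1.85 (interval 1.83 to 1.86) and the exponent 0.90, with 40 of 47 members in proportion, 6 between fixed and proportion and 1 above. In proportion were 51.6% of all genes tested and 96 of the 120 with at least 2000 UMIs. Of those 120, 72 are ribosomal protein genes. The 32 small-subunit genes, 31 of them tested, gave a fold of 1.88 (1.86 to 1.90) and an exponent of 0.93, with 26 members in proportion. As shares of all UMIs, large-subunit genes took 15.7% in the pooled mRNA-rich and 16.9% in the pooled mRNA-poor cells. Without cell 52, described below, the large-subunit exponent was 0.85, and with the members left out of the ranking it was also 0.85. Among cells whose labels end in a number up to 48 the large-subunit exponent was 0.80 and the small-subunit exponent 0.85. Above 48 both were 1.01.

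RPLP1, a stalk protein of the large subunit, had 125 to 199 UMIs per 1000 spike-in UMIs in mRNA-rich cells (median 156) and 43.1 to 118 in mRNA-poor cells (91.8), a fold of 1.80. RPL31, RPS27, RPL35A and RPL37A had folds of 1.75, 1.75, 1.74 and 1.63, and RPL39 1.58. RPL11, a large-subunit protein that also binds MDM2, reached 2.00. Among the members named by rule, RPL13 was lowest in the large subunit with a fold of 1.54 and RPL36A highest with 2.43. RPS9 (1.53) and RPS10 (2.48) were the corresponding small-subunit genes. Many ribosomal protein genes have near-identical processed pseudogenes, and how reads were divided between copies is not given in the sources used here.

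Translation and ribosome assembly genes outside the ribosome itself were in proportion as lists, close to the median of all genes. The 42 translation factor genes tested had a summed fold of 2.15 (2.10 to 2.20), with 23 in proportion and 16 above, near the 33.2% above proportion among all genes. GNB2L1 (RACK1), a scaffold on the small subunit, had a fold of 1.98 and NACA, of the nascent-chain complex, 2.47. EEF2, the elongation factor that moves the ribosome along, was at 1.34, with 5.09 to 16.1 UMIs per 1000 spike-in UMIs in mRNA-rich and 4.08 to 9.76 in mRNA-poor cells. EEF2 overlapped in most cells, with 2 mRNA-rich cells above the highest mRNA-poor cell. Its exponent was 0.19 for label numbers up to 48 and 0.85 above 48. The 26 nucleolar assembly genes had a fold of 2.14, with NPM1, a nucleolar chaperone, at 2.14. The polymerase I and III subunit POLR1C, picked as the member with the highest exponent, was at 3.69.

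Mitochondrially encoded mRNAs were the list nearest to fixed. The mitochondrial genome is transcribed as long precursors from its own copies, apart from the nucleus, and encodes 13 proteins of the respiratory chain and ATP synthase. The summed Mitochondrial mRNAs were at 454.6 to 780.0 UMIs per 1000 spike-in UMIs in mRNA-rich cells (median 664.1) and at 331.3 to 1083 in mRNA-poor cells (450.0). The groups overlapped, and the highest value of all 24 cells was that of the mRNA-poor cell 52. The fold was 1.251 (1.23 to 1.27) and the exponent 0.33, with 6 of 13 members near fixed (1.39% of all genes tested), 7 between (13.8%) and 0 in proportion (51.6%). Their share of UMIs was 2.76% in the pooled mRNA-rich and 4.36% in the pooled mRNA-poor cells.

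Cell 52, the cell with the lowest ratio, decides how near to fixed these mRNAs appear. In it they took 12.1% of UMIs, and in the other mRNA-poor cells the summed level reached at most 587.9. Large-subunit ribosomal proteins took 11.04% of its UMIs, the lowest share of the 24 cells. By label number the exponent was 0.72 up to 48 and -0.01 above 48, where cell 52 belongs, so the list ranged from fixed to nearly in proportion. Without cell 52 the fold of the mitochondrial mRNAs was 1.42 and the exponent 0.53, 0 of 13 members were near fixed, and members ran from 0.27 to 0.82. The list was still under proportion there, and 7 of 12 mRNA-rich cells lay above the highest remaining mRNA-poor cell. In the 23 cells of neither group, the summed level followed the ratio with a slope of 0.53 (Spearman rho 0.35), a description of cells that share 1 run and the same spike-in denominator.

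The complex I genes MT-ND5 and MT-ND4 had the lowest folds among the mitochondrial mRNAs. MT-ND4 was at 37.6 to 65.6 UMIs per 1000 spike-in UMIs in mRNA-rich cells (median 52.2) and at 24.6 to 149 in mRNA-poor cells (44.1), a fold of 1.02 (0.965 to 1.09). Cell 52 holds the 149, and without it the fold was 1.27. By label number the exponent of MT-ND4 was 0.68 up to 48 and -0.53 above 48. MT-ND5 had a fold of 0.97, and 1.33 without cell 52. MT-CYB, of complex III, was at 1.13 and 1.23, and the cytochrome oxidase genes MT-CO1 and MT-CO3 at 1.27 and 1.45, or 1.72 and 1.54 without that cell. MT-ND4L had the highest fold, 1.46. MTND2P28, a nuclear copy of MT-ND2 that shares its sequence, is also among the 30 near-fixed genes, and reads of the pair may be divided between them.

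The mitochondrial ribosomal RNAs lay between the mRNAs and proportion. MT-RNR2, the large-subunit rRNA and the gene with the most UMIs, was at 189 to 283 UMIs per 1000 spike-in UMIs in mRNA-rich cells (median 250) and at 109 to 328 in mRNA-poor cells (151), a fold of 1.404. MT-RNR1, the small-subunit rRNA, had a fold of 1.77. Without cell 52 these were 1.55 and 2.06, the second in proportion. The summed exponent of both was 0.63, and 0.83 without cell 52. Of the mitochondrial tRNA rows, 5 of 22 were tested, with a summed exponent of 0.81 that varied from 0.25 to 1.41 over the alternatives tried.

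The nuclear genes of the same machinery followed the total. The 67 tested genes of nuclear oxidative phosphorylation had a fold of 2.00 (1.97 to 2.03) and an exponent of 1.01. Of them, 48 were in proportion (51.6% of all genes tested), 11 above (33.2%), 8 between (13.8%) and 0 near fixed (1.39%). Their summed level was 839.8 to 1440 UMIs per 1000 spike-in UMIs in mRNA-rich and 248.7 to 633.8 in mRNA-poor cells, without overlap. Most of the 33 lists likewise did not overlap. COX7C, a cytochrome oxidase subunit, had a fold of 2.02, ATP5E of ATP synthase 1.69, and NDUFA2 of complex I 1.44. The 65 tested mitochondrial ribosomal protein genes were at 2.21 (2.14 to 2.27), with 34 in proportion and 25 above, also near the 33.2% of all genes. The exponent of the nuclear list was 0.97 without cell 52, where that of the mitochondrial mRNAs was 0.53.

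**Figure D3:**
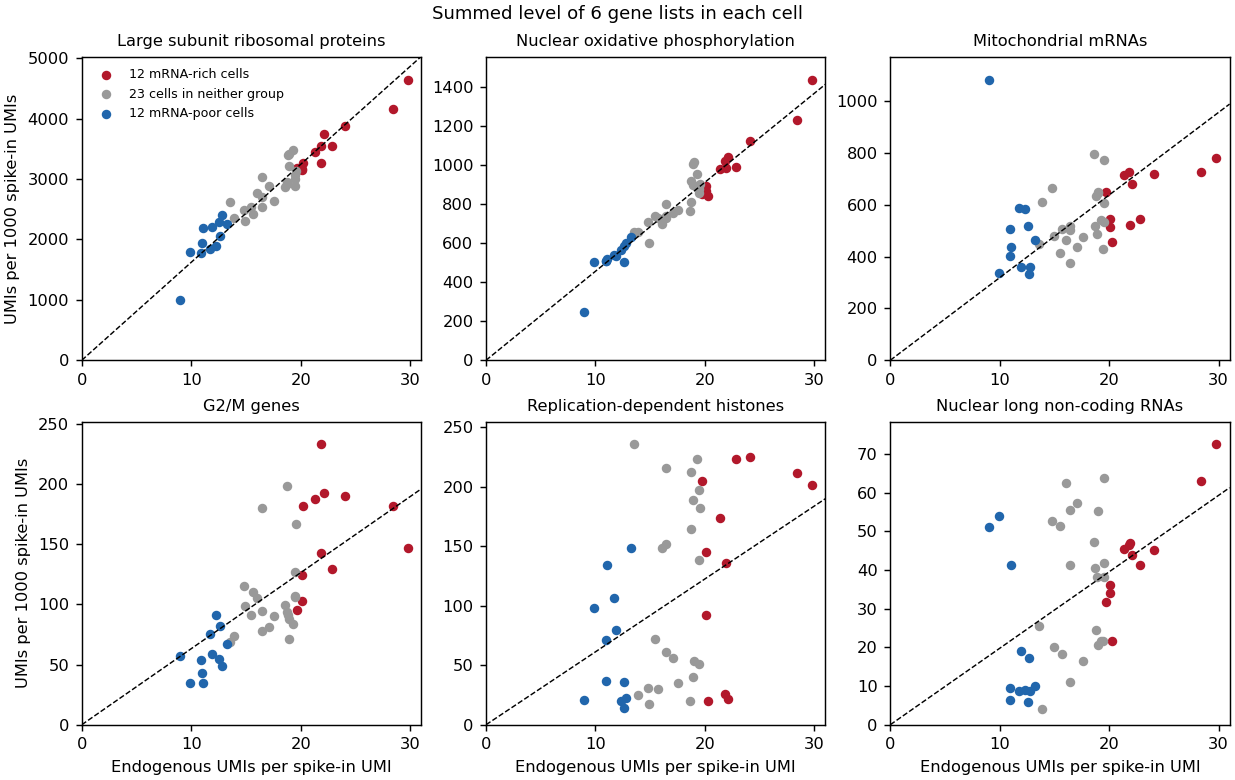
Summed level of 6 gene lists (UMIs per 1000 spike-in UMIs) against endogenous UMIs per spike-in UMI in all 47 cells; the dashed line is proportion to the total over all cells. Ribosomal protein and nuclear oxidative phosphorylation genes follow the line, and Mitochondrial mRNAs scatter with cell 52 at 1083. Histone and nuclear non-coding RNAs vary widely within both groups.

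G2/M genes, which act in chromosome condensation, spindle assembly and mitotic exit, were the only list of 33 above proportion. Many of their promoters carry CCAAT boxes, bound by NF-Y, and a CHR element, through which the DREAM and MuvB complexes restrict them to late cell cycle. The 120 bases before the annotated start are shown for 4 members picked because they carry such elements; of the 20 members with a promoter, 5 (AURKB, CDK1, KIF2C, LBR and CKAP2) carry none in this stretch; capitals mark CCAAT (or ATTGG on the other strand) and TTTGAA (or TTCAAA), which overlap where TTTGAATTGG is written (RefSeq, GRCh38.p14, 5′ to 3′ on the gene's strand).
MKI67: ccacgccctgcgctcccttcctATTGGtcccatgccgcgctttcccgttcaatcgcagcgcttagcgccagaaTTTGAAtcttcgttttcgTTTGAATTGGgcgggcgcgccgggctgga
CDCA8: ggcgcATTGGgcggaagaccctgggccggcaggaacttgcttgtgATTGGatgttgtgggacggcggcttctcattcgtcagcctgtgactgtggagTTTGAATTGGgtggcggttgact
CDC20: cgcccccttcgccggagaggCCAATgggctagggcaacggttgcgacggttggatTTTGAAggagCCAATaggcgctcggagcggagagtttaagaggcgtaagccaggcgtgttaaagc
TOP2A: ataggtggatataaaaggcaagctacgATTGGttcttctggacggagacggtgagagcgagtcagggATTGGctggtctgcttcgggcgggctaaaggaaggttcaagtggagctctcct
MKI67 lies at chr10:128126424-128126543 and TOP2A at chr17:40417897-40418016, both on the minus strand, and CDCA8 at chr1:37692396-37692515 and CDC20 at chr1:43358861-43358980 on the plus strand. In the window of 300 bases of the promoter table, CCAAT or ATTGG occurs in 35.7% of all promoters and TTTGAA or TTCAAA in 15.4%. Only 20 of 27 tested G2/M genes (74.1%) had a promoter in the table, so a share over the list is void. The TOP2A stretch holds no TTTGAA or TTCAAA. CDC20, shown here, was itself in proportion, and a link between these elements and the exponent was not tested.

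The summed G2/M genes were at 95.1 to 233.2 UMIs per 1000 spike-in UMIs in mRNA-rich cells (median 164.2) and at 34.98 to 91.3 in mRNA-poor cells (55.9). All 12 mRNA-rich cells lay above the highest mRNA-poor cell, by the smallest margin in cell 32. The same held for most of the 33 lists, among them glycolysis, lysosome and RAB GTPase genes, and the cells were ranked on the total that includes them. The fold was 2.67 (2.55 to 2.80) and the exponent 1.44. Of 27 members tested, 18 were above proportion, 8 in proportion, 1 between and 0 near fixed, against 33.2% above proportion among all genes. The share of UMIs was 0.696% in the pooled mRNA-rich and 0.517% in the pooled mRNA-poor cells. As shares the groups overlapped, with 5 mRNA-rich cells above the highest mRNA-poor cell.

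The exponent of the G2/M genes was not the same for all label numbers. Among cells whose labels end in a number up to 48 (9 mRNA-rich, 7 mRNA-poor) the exponent was 1.70, and among those with higher numbers (3 and 5) it was 1.07, in proportion. The labels do not say what the numbers stand for. By the slope over all 47 cells the exponent of the G2/M genes was 1.24, in proportion. In the 23 cells of neither group the summed level followed the ratio with a slope of 0.69 (rho 0.27). The highest of these cells, cell 9, reached 198.0, inside the range of the mRNA-rich cells.

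UBE2C, the ubiquitin-conjugating enzyme of the anaphase-promoting complex, was at 2.69 to 21.9 UMIs per 1000 spike-in UMIs in mRNA-rich cells (median 8.74) and 0.315 to 4.40 in mRNA-poor cells (2.23), a fold of 3.89 (3.10 to 4.93). The 2 highest cells, 39 and 18, had 21.9 and 18.1. TOP2A, the topoisomerase that untangles sister chromatids, had 2.14 to 13.7 against 0.567 to 6.595, a fold of 3.73. Its 2 highest mRNA-poor cells were 52 with 6.595 and 51 with 4.07. Among the label numbers above 48 UBE2C was in proportion (exponent 0.81) and TOP2A under it (0.55), and among the lower numbers they were at 2.71 and 3.03. MKI67, the proliferation marker Ki-67, had a fold of 3.97 (interval 2.51 to 6.53) on 104 and 23 UMIs. AURKB, the kinase of the chromosomal passenger complex, had 3.57, and HMGB2, a chromatin protein abundant in dividing cells, 3.48. For HMGB2 all 12 mRNA-rich cells lay above the highest mRNA-poor cell, as for 4.95% of all genes tested. The spindle kinase PLK1 (1.92), the securin gene PTTG1 (2.11) and the anaphase activator CDC20 (2.13) were in proportion, and the condensin subunit SMC4 was lowest at 1.63.

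Genes of G1/S and of replication were in proportion as lists, with more scatter between cells. The 23 tested G1/S genes had a fold of 2.18 (2.07 to 2.29), with 14 in proportion and 8 above, against 51.6% and 33.2% of all genes tested. Their summed level overlapped between groups, at 63.7 to 196.8 UMIs per 1000 spike-in UMIs against 27.9 to 78.3. PRIM1, the primase that starts DNA strands, was picked as the highest member and had a fold of 4.01 (interval 2.48 to 6.77) on 96 and 21 UMIs. GMNN, geminin, had 2.52, the replication factor RPA2 2.06, and the ribonucleotide reductase subunit RRM2 1.66. GMNN changed sides when 8 cells a group were compared (exponent 0.92).

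HIST1H4C, a histone H4 gene whose mRNA is made during DNA synthesis, varied over a wider range within each group than between their medians. It was at 18.8 to 209 UMIs per 1000 spike-in UMIs in mRNA-rich cells (median 150) and 12.5 to 137 in mRNA-poor cells (47.9), a fold of 2.24 (2.13 to 2.35). Of the mRNA-rich cells, 16, 18 and 67 had 18.8, 20.1 and 23.8, and the other 9 had 88.0 or more. The mRNA-poor cells ran from 12.5 in cell 44 to 137 in cell 73, and 6 mRNA-rich cells lay above all of them. The exponent was 1.505 for label numbers up to 48 and 0.59 above 48, on either side of proportion. Cells 16, 18 and 67, chosen after their values were seen, had UBE2C at 10.3, 18.1 and 4.58. Other histone H4 genes encode the same protein and differ little in sequence. The assay counts poly(A) RNA, and what part of HIST1H4C mRNA carries a poly(A) tail was not tested. Of the replication-independent histone genes, H2AFZ had a fold of 2.28, H3F3A 2.31 and H3F3B 2.42, and for H2AFZ the groups did not overlap (4.95% of all genes). H1FX, a linker histone, was at 1.34, with exponents of 0.43 over all label numbers and 1.12 among those above 48.

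The genes with the highest folds came from several processes. RN7SL2, the RNA core of the signal recognition particle that targets secretory proteins, was at 1.82 to 16.3 UMIs per 1000 spike-in UMIs in mRNA-rich cells (median 8.49) and 0 to 3.97 in mRNA-poor cells (0.825). Cells 62 and 43 were highest with 16.3 and 15.9, and 11 of 12 mRNA-rich cells lay above the highest mRNA-poor cell. The fold was 7.43 (5.52 to 10.2) and the exponent 2.94, and 3.29 and 2.72 among label numbers above and up to 48. RN7SL1, its near-identical copy, had a fold of 4.72, and reads may be divided between them. This RNA is transcribed by RNA polymerase III and carries no regular poly(A) tail, and how it was primed here was not tested. The protein subunits of the particle were closer to the total, with SRP14 at 2.56, SRP9 at 2.06 and SRP72 at 1.80.

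Of the 12 named genes with the highest folds, 3 encode mitochondrial proteins, singled out after their values were seen. The 2160 genes tested include 65 mitochondrial ribosomal protein genes and 67 of nuclear oxidative phosphorylation. The share of all mitochondrial proteins among them was not counted. TIMM17A, of the inner-membrane translocase, was at 2.12 to 12.1 UMIs per 1000 spike-in UMIs against 0.5995 to 2.87, a fold of 3.94. TIMM10, a chaperone of the intermembrane space, was at 5.37 to 15.5 against 0.627 to 4.82, a fold of 3.82. FIS1, an outer-membrane adaptor linked to organelle division, was at 2.43 to 7.30 against 0 to 2.01, a fold of 3.90. For TIMM10 and FIS1 every mRNA-rich cell lay above every mRNA-poor cell, as for 4.95% of all genes tested. The other genes of this rank were WBP5 (4.29), the initiation factor subunit EIF2S3 (3.96), the importin-recycling exportin CSE1L (3.83), the spliceosome core protein PRPF8 (3.77), the tRNA synthetase EPRS (3.66) and the polyamine acetylase SAT1 (3.64). SAT1 was uneven, at 0.299 to 10.5 within the mRNA-rich cells alone.

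At the other end, 30 genes were near fixed, among them 6 mitochondrial mRNAs. RNA28S5, the 28S ribosomal RNA, had a fold of 0.92 (0.81 to 1.04), with 6.37 to 14.6 UMIs per 1000 spike-in UMIs in mRNA-rich cells (median 12.01) and 4.70 to 46.9 in mRNA-poor cells (8.77). Cells 44 and 80 had 46.9 and 18.3, and the other 10 mRNA-poor cells at most 10.5. Without cell 44 the exponent was 0.43 instead of -0.12, and RNA28S5 was no longer near fixed. Like RN7SL2 it is not a regular poly(A) RNA. The nuclear-encoded near-fixed genes with at least 200 UMIs were P4HB, a disulfide isomerase of the ER (1.09, interval 0.82 to 1.46), PPDPF (1.14), SNRNP25 of the minor spliceosome (1.15), CYBA, a subunit of NADPH oxidase (1.16), and CCDC124 (1.17). CYBA was at 1.495 to 6.94 in mRNA-rich and 0.478 to 6.40 in mRNA-poor cells, a nearly complete overlap. These genes were picked for their low fold, and under the other settings tried PPDPF reached an exponent of 0.82 and SNRNP25 0.68.

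**Figure D4:**
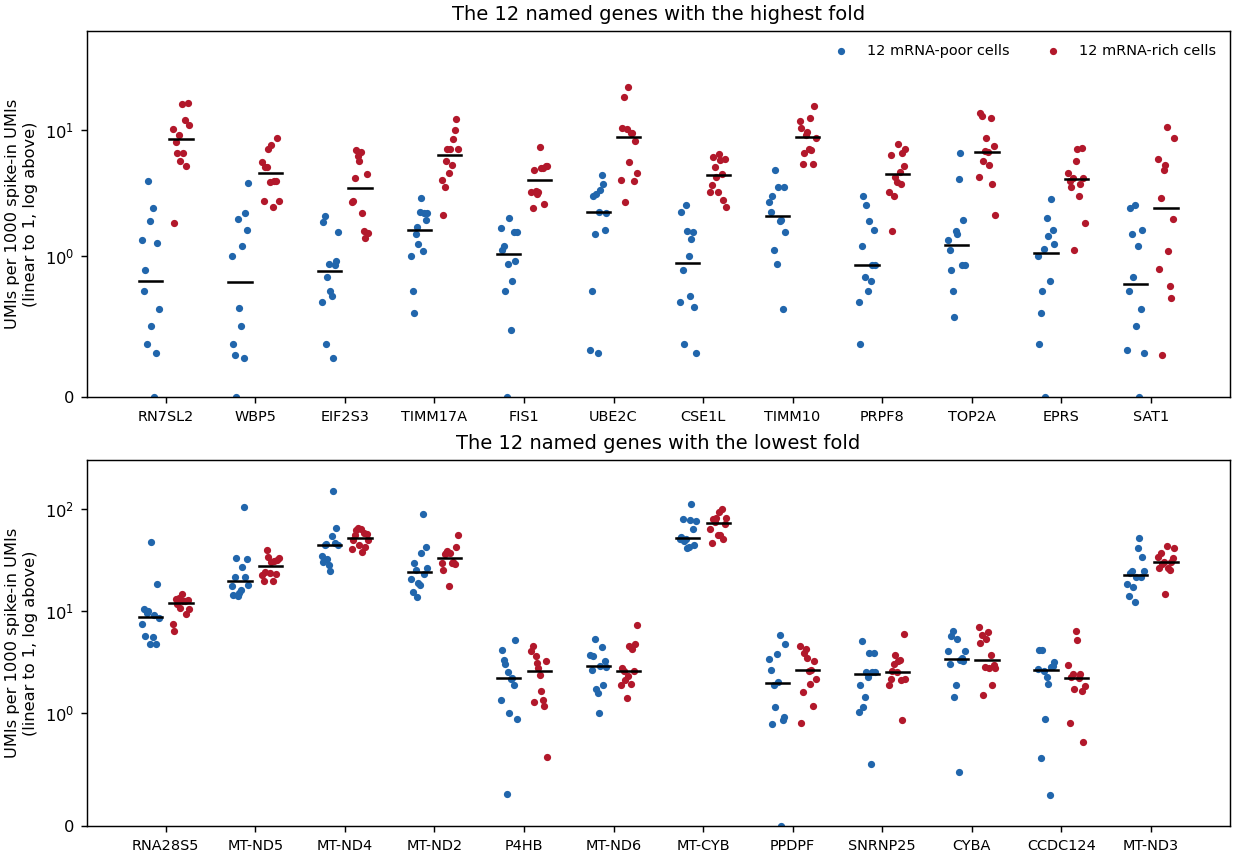
UMIs per 1000 spike-in UMIs in each of the 12 mRNA-poor (blue) and 12 mRNA-rich (red) cells for the 12 genes with the highest and the 12 with the lowest fold among genes with at least 200 UMIs; bars are medians, and the axis is linear to 1 and logarithmic above. The upper genes separate the groups in most cells, and in the lower panel the single high points are cell 44 for RNA28S5 and cell 52 for MT-ND5, MT-ND4 and MT-ND2.

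MALAT1, a long RNA kept in nuclear speckles, also varied from cell to cell beyond what the group fold shows. It was at 15.2 to 55.2 UMIs per 1000 spike-in UMIs in mRNA-rich cells (median 34.4) and at 2.10 to 45.7 in mRNA-poor cells (5.90), a fold of 2.31 (2.10 to 2.54). The summed nuclear long non-coding RNAs were at 41.4 to 53.9 in the mRNA-poor cells 23, 31 and 52 and at 5.995 to 18.98 in the other 9. Without cell 52 the exponent of MALAT1 was 1.58 instead of 1.23. NEAT1, which forms paraspeckles, had a fold of 2.02. Hosts of small nucleolar RNAs went separate ways: SNHG15, SNHG6, GAS5 and SNHG5 had folds of 3.48, 3.34, 3.32 and 2.83, and SNHG8, SNHG3 and SNHG7 1.403, 1.397 and 1.51.

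The remaining lists were in proportion or nearly so. For the member counts below, the shares among all genes tested were 51.6% in proportion and 33.2% above. Proteasome genes had a fold of 2.15, with 21 of 35 in proportion and 11 above, from PSMC5 (1.41) to PSMD12 (5.05). The lowest and highest members named for any list were picked by exponent among members with at least 100 UMIs. A high member can pass that minimum through its count in the mRNA-rich cells, and the part of this in its fold was not tested. Splicing genes were at 2.14, with 28 of 51 in proportion and 16 above, chaperones at 2.08 with 19 of 34, and RNA polymerase II and general transcription genes at 2.13 with 12 of 24. Within the chaperones the HSP90 co-chaperone STIP1 had a fold of 5.18 and the ER co-chaperone DNAJB11 0.97. Glycolysis genes were slightly under the total at 1.83, GAPDH at 1.70, ENO1 at 1.79 and ALDOA at 1.57, while the lactate transporter SLC16A1 was at 2.86. Actin genes gave 1.88, with ACTB at 1.82 and ACTG1 at 1.70, and tubulins and stathmin 2.21, with TUBA1B at 2.13. GAPDH and ACTB, often used as references, had exponents of 0.77 and 0.88, in proportion by the limits used but under 1. Over the alternatives tried, GAPDH ran from 0.61 to 1.00 and ACTB from 0.77 to 1.14.

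Short-lived regulators spread widely around the same summed fold. Of 12 immediate-early and short-lived genes tested, the developmental factor SOX4 had a fold of 3.55, at 3.27 to 34.6 UMIs per 1000 spike-in UMIs against 0.630 to 9.03, ID3, an inhibitor of helix-loop-helix factors, 1.81, and IER2 1.06. In the cells of neither group the list had a slope of 2.35 with rho 0.78. The cell cycle inhibitors were lowest among nuclear lists with a summed fold of 1.65 (1.45 to 1.88). CDKN2A, which encodes p16 and ARF, was at 1.73 and CDKN3, a CDK phosphatase, at 1.90. That list had an exponent of 1.03 when cells were ranked by endogenous UMIs alone. Genes of cholesterol synthesis (1.86), the lysosome (1.88), the ER and secretion (2.07) and the unfolded protein response (1.98) stayed near the total. The p53 target list rests on RPS27L (1.86), the only member tested.

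**Figure D5:**
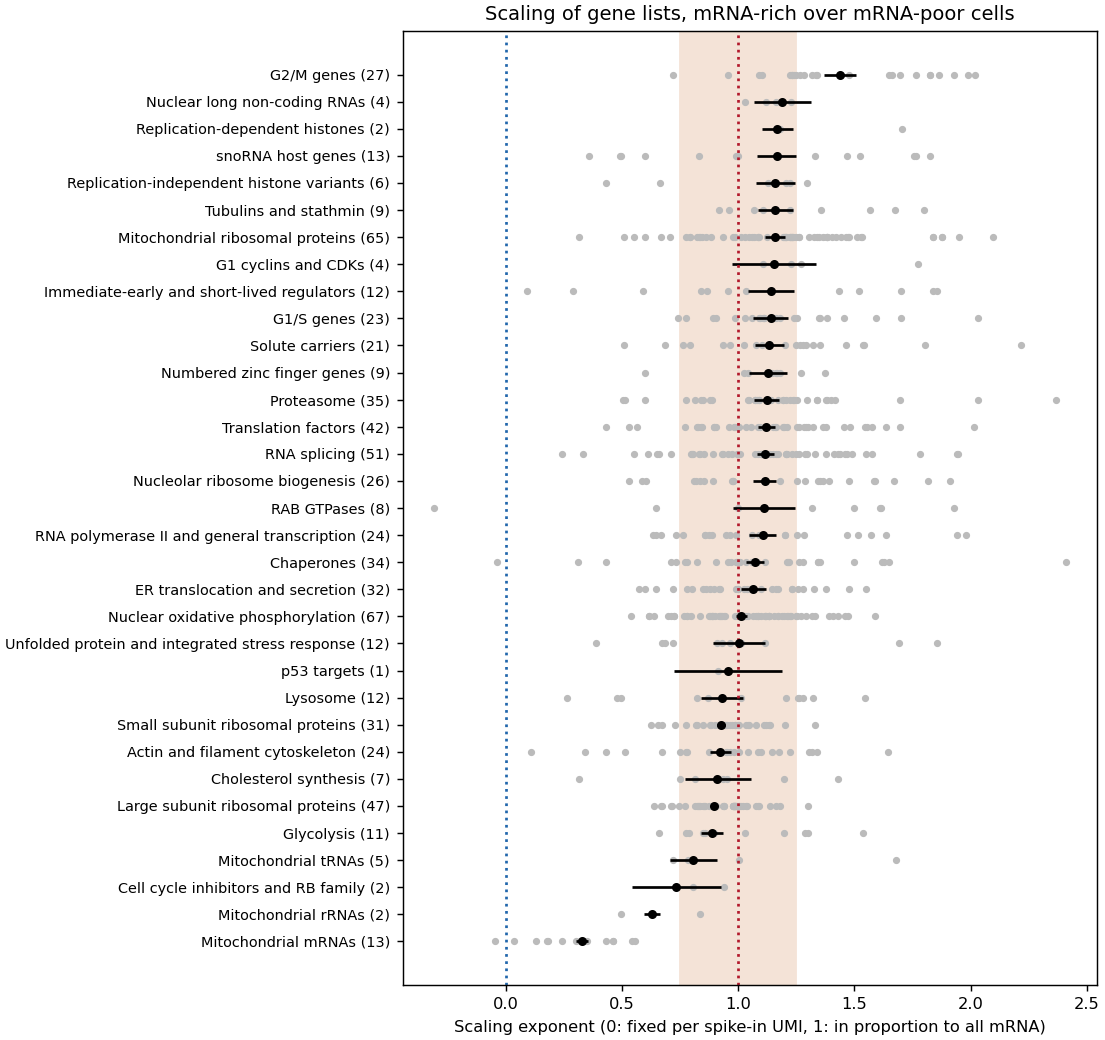
Scaling exponent of 33 gene lists from summed UMIs (black points; bars are 95% counting intervals) with the exponents of their tested members in grey and their number in brackets; 0 is fixed per spike-in UMI, 1 is proportion, and the shaded band lies within 0.25 of 1. Of the 33 lists, 29 lie in the band, G2/M genes above it at 1.44, and 3 below it, with Mitochondrial mRNAs lowest at 0.33.

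Transcript length was compared across the classes. Length here is the median over all annotated protein-coding transcripts of a nuclear gene in GENCODE 29, whichever of them the cells express. It can thus differ from the length of the mRNA counted, with TOP2A at 579 bases and P4HB at 571. By this length, 30.1% of genes under 1000 bases were above proportion, 34.1% and 37.7% in the next 2 ranges, and 42.7% of those with 3000 bases or more. Among genes with at least 100 and under 500 UMIs the shares were 35.2%, 35.4%, 39.9% and 42.2%. Longer transcripts were also less abundant within this range, with median UMIs of 200 in the shortest and 148.5 in the longest, so length and abundance are not separated here. Median lengths were 1044 bases in the near-fixed class, 1066.5 in proportion and 1233 above it.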

How the data were processed

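The deposited values are raw UMI counts of each gene in each cell, without normalization. Per the submitters' processing notes, cutadapt 1.2.1 and STAR 2.4.0a were used with builds hg19 and GRCh37; the annotation, the collapsing of UMIs, the use of strand and the handling of multi-mapping reads are not given in the sources used here. All 47 columns matched 1 label each, and 0 were left over. A repeated header line (0.0602% of all values) and a phage control row with 1 UMI were left out. Libraries held 29325 to 138647 endogenous and 2573 to 4717 spike-in UMIs.

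The members, the gene lists (26 lists, 7 name patterns and 6 marker lists) and the rules were chosen with earlier results of these data known. Named genes are, among genes with at least 200 UMIs in the 24 cells, the 12 with the highest and the 12 with the lowest fold whose fold of group medians lies on the same side of the overall fold, the 10 with the most UMIs, and in each list the 2 most abundant members and those with the highest and the lowest exponent. No test was made. Folds are ratios of pooled counts per spike-in UMI with exact conditional (Clopper-Pearson) 95% intervals, which take spike-in totals as exact. Slopes over cells are from Poisson regression. Thinning used 1 random draw with seed 1. The exponent script was tested on simulated data. Promoters were read from a RefSeq table of GRCh38.p14, which is not the build of the counts, and matched by symbol and synonym to 1817 of 2140 nuclear genes (84.9%). Work was done in python 3.11.15 with numpy 2.4.6, pandas 2.3.3, scipy 1.17.1 and matplotlib 3.10.9.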

Additional observations from a re-analysis of the deposited data

How the results depend on the processing

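The overall fold of 1.98 was 1.80 to 2.22 over the alternatives (other group sizes, rankings, spike-in sets and label numbers) and 1.91 to 2.01 when each of the 24 cells was left out in turn, an alternative chosen after seeing the data. The number of near-fixed genes was the least firm. It was 30 of 2160 tested as reported (1.39%), 16 of 1577 with 8 cells a group (1.01%) and 48 of 2698 with 16 (1.78%). When cells were ranked by endogenous UMIs alone it was 55 of 2189 (2.51%). Of the 2160, it was 75 for label numbers up to 48 (3.47%) and 140 above 48 (6.48%). Class limits of 0.4, 0.6 and 1.4 gave 66 (3.06%). Genes of at least 20 UMIs gave 569 of 6854 (8.30%), and those of at least 500 gave 6 of 442 (1.36%). Genes in proportion were 1114 of 2160 (51.6%), 2353 of 6854 at 20 UMIs (34.3%) and 309 of 442 at 500 (69.9%). Genes above proportion were 717 (33.2%), 2751 at 20 UMIs (40.1%), 82 at 500 (18.6%) and 459 with the other limits (21.25%). Leaving out 1 cell gave 24 to 38, 984 to 1097 and 658 to 742. The difference between the groups' median numbers of detected genes was 477.5 after thinning and 2104.5 without it. Over all settings other than leaving out a cell, 16 of 33 lists crossed an exponent of 1 and 13 changed class, as did 46 and 95 of 144 named genes, so the class of a single gene is loose. Of the lists that lay outside the limits of proportion, cell cycle inhibitors and RB family crossed 1, at 1.03 when ranked by endogenous UMIs alone. Named genes that lay outside the limits and crossed 1 were EPB41L4A-AS1 (1.00 with 8 cells a group, 1.55 ranked by endogenous UMIs), GMNN (0.92) and MT-TS2 (1.06) with 8 cells, ZNF326 (1.01) with cell 52 replaced by the next cell, H3F3B (0.98) and MT-TS2 (1.03) when cells were ranked on odd-numbered and measured on even-numbered spike-ins, MT-TS2 (1.47), GTF2B (1.21) and ZNF326 (1.07) for label numbers up to 48, H1FX (1.12), KRT18 (1.21), TOP2A (0.55), TUBB2B (0.34) and UBE2C (0.81) above 48, HN1 (0.96) by the slope over 47 cells, and MT-TS2 without cell 80 (0.44 to 1.03 when each cell was left out). The cause was not tested. Depth limits single genes near 100 UMIs, where spike-ins of like abundance ran from 0.594 to 1.81 in fold. No paired analysis was possible because the cells form 1 group in the labels and share no replicate numbers.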
